A study of Mus musculus with 2 samples.

Results

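The integrated stress response genes described here are Atf4, Atf5, Trib3, Chac1, Asns, Psat1, Sesn2 and Ppp1r15a, 8 of the 32285 features counted in nuclei of injured mouse spinal cord. They are a listed set of symbols, each found once in the files, and they were chosen by their AEVs over PBS ratios in an earlier analysis of the same libraries, among them that of Trib3 in oligodendrocytes. Their ratios between the libraries are therefore given as descriptions, with no test. Wild-type C57BL/6 mice aged 6 to 8 weeks had a contusion at thoracic level 10 from a falling rod (5 g, 1 mm wide, 6 cm drop), and the cord was taken on day 7. The AEVs group received athlete-derived extracellular vesicles, membrane particles shed by cells, with 100 µg of vesicle protein in 100 µL of phosphate-buffered saline, by tail vein once a day on 5 days. The PBS group received 100 µL of the saline alone on the same days, and mice of both groups were given antibiotics daily. The nuclei of 3 mice went into 1 pooled library for each group, so a group has 1 value, mice cannot be told apart, and no difference below has a replicate check.

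In the integrated stress response, kinases that sense amino acid lack, unfolded protein in the endoplasmic reticulum, heme lack or double-stranded RNA phosphorylate the translation factor eIF2. General translation then falls while the mRNA of the transcription factor ATF4 is translated more, and ATF4 with partner factors switches on genes for amino acid supply, redox balance and, when stress lasts, cell death. ATF4 is set largely at translation, so the level of its RNA is not a measure of its protein. In the central nervous system the pathway is known from a human white matter disease in which the eIF2 exchange factor eIF2B is mutated, and oligodendrocytes carry a heavy load of protein and lipid synthesis.

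ATF4 dimers bind composite C/EBP-ATF elements and CRE-type elements, so these letters were looked for in the promoter windows of the genes, and the 4 windows that hold one are shown. RefSeq promoter windows on GRCm38.p6, from 250 bases before to 50 bases after a transcription start, were found for 8 of 8 genes, with 10 windows in all because Atf5 and Psat1 have more than 1 start. The motif TGATGNAA stood on either strand in 1304 of 32851 promoter windows (3.97%), among them those of Trib3, Chac1 and Asns. The motif TGACGTCA stood in 588 windows (1.79%), among them that of Ppp1r15a, and TGACGTAA stood in 164 windows (0.499%) and in none of the 10. The same 8 bases cannot match more than 1 of these motifs on either strand. In all, 2037 windows (6.20%) held at least 1 of them, against 4 of the 10. A match says only that these letters are there. The stretches below run 5′ to 3′ on the strand of the gene from 220 bases before to 30 bases after the RefSeq start, and capitals mark the match.
Trib3: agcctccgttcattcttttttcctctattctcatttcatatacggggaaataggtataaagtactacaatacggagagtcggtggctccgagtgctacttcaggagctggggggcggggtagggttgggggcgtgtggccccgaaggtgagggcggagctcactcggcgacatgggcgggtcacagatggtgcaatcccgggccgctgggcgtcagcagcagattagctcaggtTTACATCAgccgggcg
Chac1: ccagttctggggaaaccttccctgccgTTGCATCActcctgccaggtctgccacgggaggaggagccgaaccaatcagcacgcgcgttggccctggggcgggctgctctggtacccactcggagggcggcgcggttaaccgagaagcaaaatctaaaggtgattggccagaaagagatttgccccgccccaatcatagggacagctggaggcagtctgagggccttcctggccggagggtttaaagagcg
Asns: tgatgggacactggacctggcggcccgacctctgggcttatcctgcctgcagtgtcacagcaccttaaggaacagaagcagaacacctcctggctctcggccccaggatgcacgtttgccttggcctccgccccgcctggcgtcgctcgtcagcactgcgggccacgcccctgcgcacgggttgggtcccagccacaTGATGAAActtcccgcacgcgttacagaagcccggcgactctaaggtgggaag
Ppp1r15a: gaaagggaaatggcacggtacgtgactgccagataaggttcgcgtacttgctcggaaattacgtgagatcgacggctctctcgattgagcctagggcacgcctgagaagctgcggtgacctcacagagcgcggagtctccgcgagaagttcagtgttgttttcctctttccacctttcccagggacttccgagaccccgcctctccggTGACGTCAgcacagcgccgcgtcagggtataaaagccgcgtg
The Trib3 stretch is chr2:152344031-152344280 on the minus strand, with its match on the opposite strand at positions 15 to 22 after the start. The Chac1 stretch is chr2:119351022-119351271 on the plus strand, with its match on the opposite strand at positions -193 to -186. The Asns stretch is chr6:7693180-7693429 on the minus strand, with its match on the same strand at -23 to -16. The Ppp1r15a stretch is chr7:45526239-45526488 on the minus strand, with the palindrome TGACGTCA at -12 to -5.

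After removal of poor nuclei and of nuclei called as doublets, 15549 AEVs and 14023 PBS nuclei remained, with medians of 2400 and 2600 unique molecular identifiers (UMIs, each standing for 1 captured RNA molecule). In all, 177 barcodes occurred in both libraries, of which 146 were kept, and leaving them out of both libraries turned no called ratio of the 8 genes round. Nuclei were clustered and named by marker genes. Klk6-led clusters, which had 10 and 9 of 10 oligodendrocyte markers raised but Enpp6 of the differentiating list among their leading genes, were held apart from the oligodendrocyte-like class, and neurofilament-led clusters from the neuron-like class, a choice made after the data were seen. Levels below are given per 1000000 UMIs of a class (CPM) and ratios as AEVs over PBS, and ranges in parentheses are exact 95% intervals that cover counting error only. A gene counts as called where it has at least 20 UMIs in both libraries together and a ratio of at least 1.5-fold, 0.58 on the log2 scale. Because the genes were chosen on this contrast, the share of all features called is printed beside their counts and nothing is read from the pair.

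Over all nuclei the 8 genes were each higher in the AEVs library under scaling by the class total, by 0.09 (Asns) to 0.99 (Trib3) on the log2 scale, though Asns turned to -0.01 under either other scaling factor. Their median was 0.39, beside 0.10 for all 21046 features with enough UMIs, and the other scaling factors (TMM and median of ratios) shifted every value by -0.09 and -0.10 here, by -0.14 and -0.12 in the Klk6-led clusters and by -0.13 and -0.11 in the oligodendrocyte-like class. Trib3 was the 1 gene of 8 called higher and none was called lower, where 12.5% of all features were called higher and 6.11% lower. In a sum over all nuclei, more cells of a type that holds a gene and more of its RNA per cell cannot be told apart, so the classes are described one by one.

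Oligodendrocytes make the myelin of the central nervous system, and the gap between the libraries was wide there for most of the 8 genes. In the 5499 AEVs and 4499 PBS nuclei that were oligodendrocyte-like or Klk6-led, counted as 1 class, the log2 ratios ran from 0.33 (Asns) to 3.96 (Trib3), with a median of 1.02 beside 0.13 for all features. Trib3, Atf4, Atf5, Chac1, Sesn2 and Ppp1r15a were called higher, 6 of 8, and none was called lower, where 17.1% of all 14650 features were called higher and 6.80% lower. In the oligodendrocyte-like class alone 6 genes had enough UMIs, and Atf4, Atf5, Sesn2 and Ppp1r15a were called higher, where 16.5% of all features were called higher and 7.45% lower. That count of 4 was 2 with TMM scaling, 2 without a mitochondrial limit and 1, Ppp1r15a, with a stricter filter on nuclei (at least 500 genes and 1000 UMIs, under 2% mitochondrial). The same 4 genes were called higher among 6 in the Klk6-led clusters, where the shares of all features were 17.7% and 6.28%, though after each nucleus was thinned to 1000 UMIs the count was 2, Atf4 and Atf5. The medians over those 6 were 0.69 in the oligodendrocyte-like class and 1.24 in the Klk6-led clusters, beside 0.12 and 0.15 for all features. Whether the ratios differed between these kinds of nuclei was not tested.

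**Figure D1:**
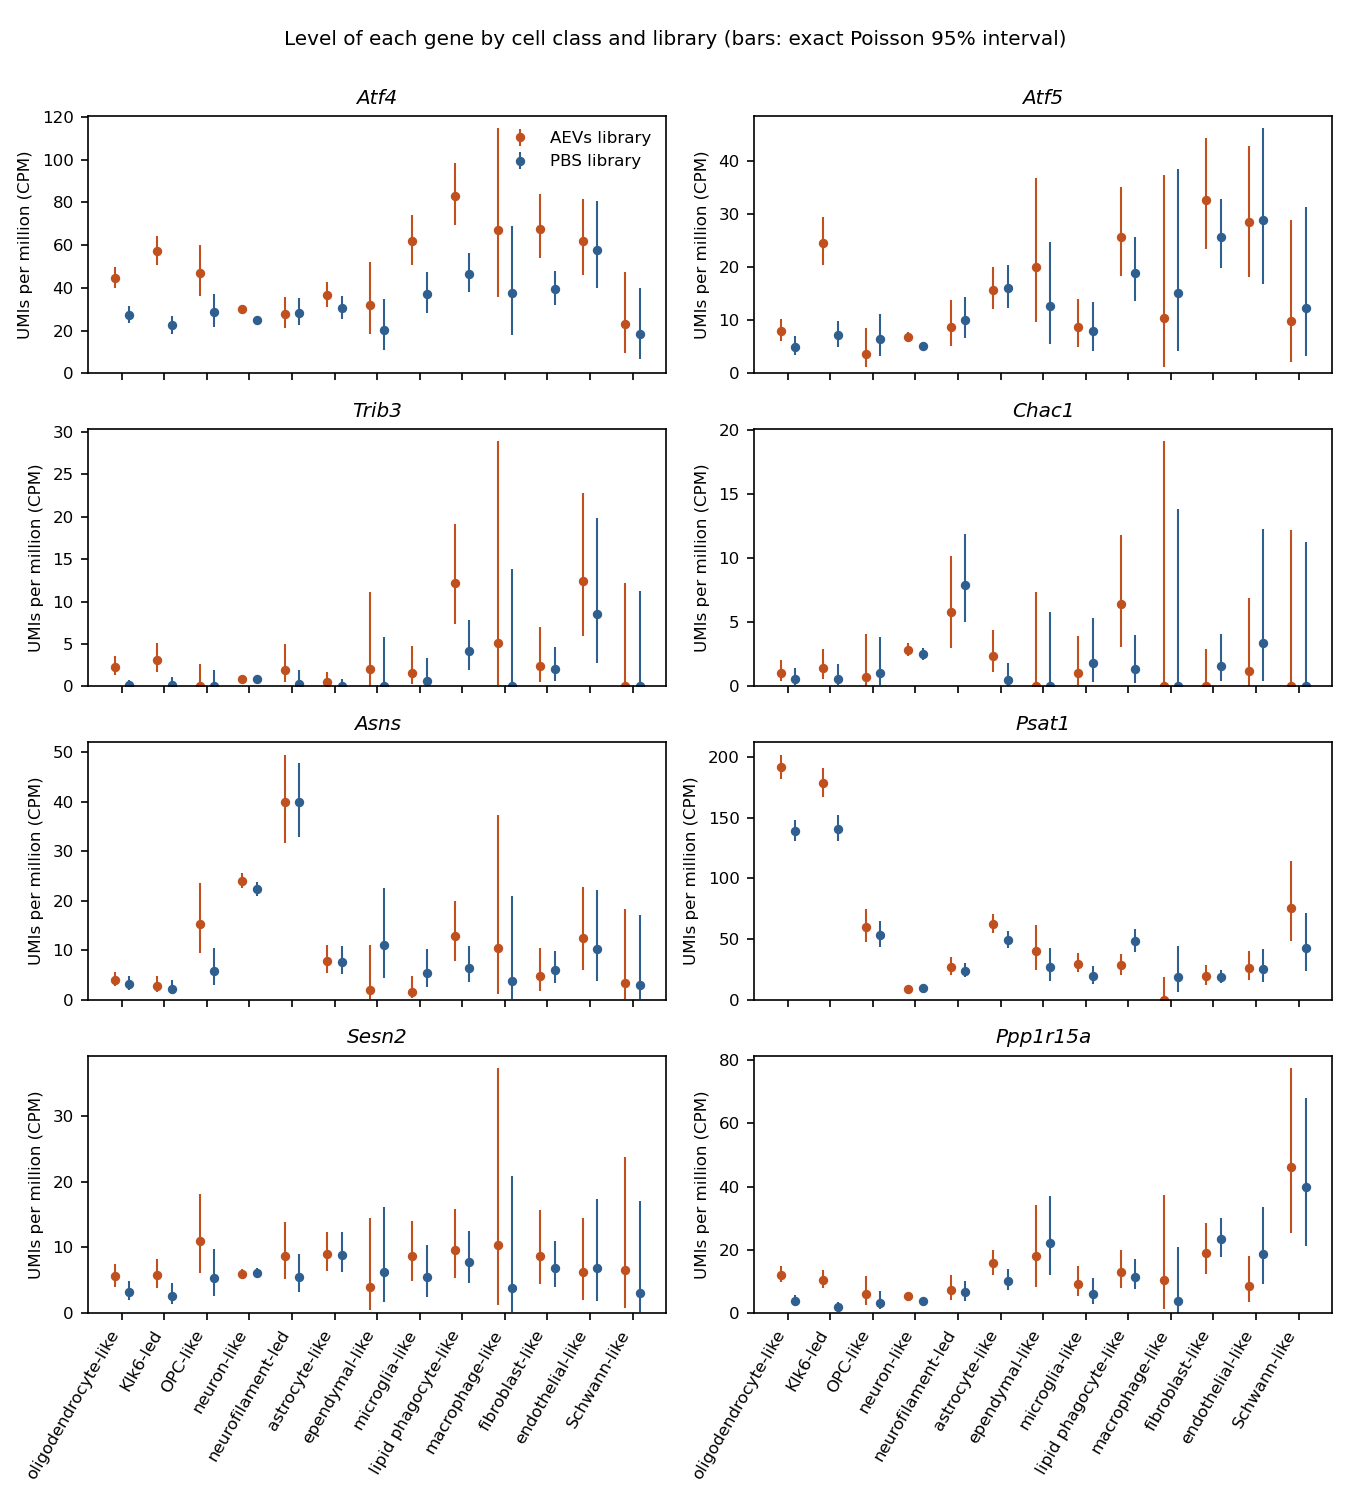
Level of each gene (CPM, linear axis) in 13 classes of nuclei, AEVs in orange left of PBS in blue, with exact Poisson 95% intervals for counting error. Atf4 stood at 57.2 CPM in AEVs and 22.4 CPM in PBS in the Klk6-led clusters, while for Asns the neurofilament-led and neuron-like classes were highest in both libraries.

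Atf4 encodes the central transcription factor of the pathway. In the Klk6-led clusters it had 279 UMIs or 57.2 CPM (50.7 to 64.3) in the AEVs library and 110 UMIs or 22.4 CPM (18.4 to 27.0) in the PBS library. The log2 ratio was 1.35 (1.03 to 1.69), and the intervals of the levels do not overlap. The oligodendrocyte-like class had 44.6 CPM (39.9 to 49.6) in AEVs and 27.3 CPM (23.6 to 31.4) in PBS, a log2 ratio of 0.71 (0.45 to 0.97). The gap was present in each of the 4 larger clusters that make up these nuclei, at log2 1.42 and 1.29 in the Klk6-led clusters and 0.66 and 0.81 in the oligodendrocyte-like ones, while the remaining small cluster held 1 and 3 UMIs. These clusters are parts of the same libraries, so they are not replicates. Depth per nucleus was lower in the AEVs library in these nuclei, with medians of 2006 and 2378 UMIs. After each nucleus was thinned to 1000 UMIs, 4.25% of the AEVs nuclei and 2.80% of the PBS nuclei held an Atf4 UMI, against 10.2% and 6.47% unthinned.

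Atf4 was also called higher in the AEVs library in lipid-loaded phagocyte-like, fibroblast-like, microglia-like and oligodendrocyte precursor-like nuclei. In the phagocyte-like class, which takes up myelin debris, it stood at 83.0 CPM (69.3 to 98.6) in AEVs and 46.5 CPM (37.9 to 56.5) in PBS. In the fibroblast-like class the levels were 67.8 CPM in AEVs and 39.4 CPM in PBS, a log2 ratio of 0.78 (0.35 to 1.22). In the microglia-like class they were 61.7 CPM and 37.0 CPM, a log2 ratio of 0.74 (0.28 to 1.21). Within each library these levels lie above the neuron-like ones, 30.1 CPM (28.5 to 31.8) in AEVs and 25.0 CPM (23.6 to 26.5) in PBS. The neuron-like log2 ratio of 0.27 (0.15 to 0.39) was under the fold that counts as called. Oligodendrocyte precursor-like nuclei had 46.9 CPM in AEVs and 28.6 CPM (21.5 to 37.3) in PBS, and the PBS interval takes in the neuron-like PBS level. Neurofilament-led nuclei held 27.7 CPM in AEVs and 28.2 CPM in PBS, and their intervals overlap almost fully. Ordered by level, the lipid-loaded phagocyte-like class came first in the AEVs library and the endothelial-like class in the PBS library, and 1 of 12 neighbouring pairs in AEVs (oligodendrocyte-like over astrocyte-like) and 0 of 12 in PBS lay apart beyond counting error. Neighbours in an order are the closest classes, so this does not show that classes further apart were alike.

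Atf5 encodes a related transcription factor whose mRNA, like that of Atf4, is translated more when eIF2 is phosphorylated. In the Klk6-led clusters it had 120 UMIs or 24.6 CPM (20.4 to 29.4) in AEVs and 35 UMIs or 7.12 CPM (4.96 to 9.90) in PBS, a log2 ratio of 1.79 (1.24 to 2.38). The oligodendrocyte-like class had 7.96 CPM (6.07 to 10.2) in AEVs and 5.01 CPM (3.51 to 6.94) in PBS, a smaller gap with a log2 ratio of 0.67 (0.05 to 1.31). The lower bound of this ratio exceeds 0 by less than the size of the shift under TMM (-0.13) or median of ratios (-0.11). The AEVs level in the Klk6-led clusters thus lay above every level of Atf5 in oligodendrocyte-like nuclei, and near those of fibroblast-like nuclei (32.7 CPM in AEVs, 25.7 CPM in PBS) and endothelial-like nuclei (28.5 CPM in AEVs, 28.9 CPM in PBS), the classes highest for this gene. Astrocyte-like nuclei had 15.7 CPM in AEVs and 16.0 CPM in PBS, and their intervals overlap. No neighbouring pair of classes in the order lay apart beyond counting error in either library. Classes further apart stood wider, such as 32.7 CPM in fibroblast-like against 6.83 CPM in neuron-like nuclei in AEVs. Atf5 shares 571 bases with Nup62 and 272 bases with Il4i1 on the opposite strand, and whether counting used strand is not given in the sources used here. In the oligodendrocyte-like and Klk6-led nuclei Nup62 had 55 UMIs in AEVs and 48 in PBS, and Il4i1 had 9 and 13, so neither showed a gap of the size that Atf5 did.

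Trib3 encodes a pseudokinase that is induced by ATF4 and restrains it in turn. It was sparse, with 111 UMIs in the whole AEVs library and 60 in the whole PBS library. In the oligodendrocyte-like class it had 17 UMIs in AEVs and 1 in PBS, a log2 ratio of 4.02 (1.34 to 9.40), and in the Klk6-led clusters 15 UMIs in AEVs and 1 in PBS, a log2 ratio of 3.92 (1.22 to 9.31). These are among the values for which the gene was chosen, and they rest on 26 AEVs and 2 PBS nuclei that held the RNA. By cluster, Trib3 had 14 UMIs in AEVs and 0 in PBS in the largest oligodendrocyte-like cluster, 4.60-fold higher with 3 UMIs in place of 0 in the PBS library. The larger Klk6-led cluster had 10 and 0, 3.73-fold higher on the same basis. Counting intervals of the log2 ratios had lower ends of 1.71 and 1.33, which lie under these folds. The other 2 clusters held 5 and 3 UMIs in AEVs and 1 each in PBS. Oligodendrocyte precursor-like nuclei, which were deeper (medians of 3404 UMIs in AEVs and 4001 in PBS), held the RNA in 0 of 384 AEVs nuclei and 0 of 443 PBS nuclei, which, with 3 nuclei in place of 0, allows shares of nuclei with a UMI of up to 0.781% and 0.677%. The shares in the oligodendrocyte-like and Klk6-led nuclei together, 0.473% in AEVs and 0.0445% in PBS, lie under those limits.

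Outside the oligodendrocytes, Trib3 was called higher in lipid-loaded phagocyte-like nuclei, where 19 UMIs or 12.2 CPM (7.36 to 19.1) in AEVs stood against 9 UMIs or 4.14 CPM (1.89 to 7.86) in PBS. The levels of the endothelial-like class, 12.4 CPM (5.95 to 22.8) in AEVs and 8.49 CPM (2.76 to 19.8) in PBS, were the highest of the order in both libraries, from 10 and 5 UMIs, and differed by less than counting error. Neuron-like nuclei had 35 UMIs in AEVs and 36 in PBS, or 0.845 and 0.823 CPM, a log2 ratio of 0.04 (-0.68 to 0.75). No neighbouring pair of the order lay apart beyond counting error. Further apart in the AEVs order, 12.2 CPM in lipid-loaded phagocyte-like nuclei stood against 0.845 CPM in neuron-like nuclei.

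Chac1 encodes an enzyme that breaks down glutathione, the main antioxidant thiol of the cell. It had 15 UMIs in AEVs and 7 in PBS over the oligodendrocyte-like and Klk6-led nuclei, 1.21 and 0.579 CPM, and the interval of the log2 ratio of 1.06 (-0.32 to 2.60) includes 0. In lipid-loaded phagocyte-like nuclei it had 10 UMIs in AEVs and 3 in PBS, a log2 ratio of 2.22 (0.26 to 4.72), and in astrocyte-like nuclei 10 and 2, a log2 ratio of 2.23 (-0.003 to 5.46). Both classes were below the 20 UMIs needed for a call. Neuron-like nuclei held most of the RNA, 118 UMIs in AEVs and 110 in PBS, at 2.85 and 2.51 CPM with a log2 ratio of 0.18 (-0.21 to 0.57). Neurofilament-led nuclei had more per UMI, 5.84 CPM in AEVs and 7.92 CPM in PBS, and lay apart from the neuron-like class beyond counting error in the AEVs order. At this depth the gap of Chac1 in oligodendrocytes lay within counting error.

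Asns encodes asparagine synthetase and Psat1 the aminotransferase of serine synthesis, the enzymes of amino acid supply among the 8 genes. Asns had 30 UMIs in AEVs and 23 in PBS in the oligodendrocyte-like class, or 3.98 and 3.20 CPM, and 14 and 11 UMIs in the Klk6-led clusters, with intervals that overlap in both. Its log2 ratio over both kinds of nuclei was 0.33 (-0.34 to 1.02). It was called higher in oligodendrocyte precursor-like nuclei, with 15.4 CPM (9.54 to 23.6) in AEVs and 5.83 CPM (2.91 to 10.4) in PBS, and in lipid-loaded phagocyte-like nuclei, with 12.9 CPM (7.86 to 19.9) in AEVs and 6.44 CPM (3.52 to 10.8) in PBS, though the interval of this log2 ratio of 1.00 (-0.06 to 2.10) includes 0. Asns was highest in the neuronal classes of both libraries. Neurofilament-led nuclei had 39.9 CPM in both libraries and neuron-like nuclei 24.1 CPM in AEVs and 22.4 CPM in PBS, and in either library these classes lay apart from each other beyond counting error.

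Psat1 had 1445 UMIs or 191.6 CPM (182 to 202) in AEVs and 998 UMIs or 138.9 CPM (131 to 148) in PBS in the oligodendrocyte-like class, a log2 ratio of 0.46 (0.35 to 0.58). Klk6-led nuclei had 178.5 CPM (167 to 191) in AEVs and 140.9 CPM (131 to 152) in PBS, a log2 ratio of 0.34 (0.20 to 0.49). The intervals of the levels do not overlap in either, yet both ratios are under 1.5-fold. These nuclei held the highest Psat1 levels in both libraries, and the classes next in order stood at 76.0 CPM in AEVs (Schwann-like) and 53.0 CPM in PBS (oligodendrocyte precursor-like). After thinning, 17.1% of AEVs nuclei and 13.4% of PBS nuclei of both kinds together held a Psat1 UMI. The astrocyte-like class had 62.2 CPM in AEVs and 49.2 CPM in PBS, a log2 ratio of 0.34 (0.07 to 0.61) that turned to -0.05 after thinning.

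Lipid-loaded phagocyte-like nuclei went the other way for Psat1. They had 44 UMIs or 28.3 CPM (20.6 to 38.0) in AEVs and 105 UMIs or 48.3 CPM (39.5 to 58.5) in PBS, a log2 ratio of -0.77 (-1.31 to -0.25), so that Psat1 was the 1 gene called lower in any class with enough nuclei. When nuclei were clustered without the listed genes the ratio was -0.54, which is under 1.5-fold. The 10 oligodendrocyte markers were lower there too, 1 of 10 being higher in AEVs, with summed levels of 1040 CPM in AEVs and 1528 CPM in PBS, which are 4.73% and 6.43% of the levels in oligodendrocyte-like nuclei. Psat1 itself stood at 14.8% of its oligodendrocyte-like level in AEVs and 34.8% in PBS. The part of oligodendrocyte RNA in the Psat1 result was not tested.

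Sesn2 encodes a sestrin, a leucine sensor that restrains the growth kinase complex mTORC1. Among oligodendrocyte-like nuclei it had 42 UMIs or 5.57 CPM (4.02 to 7.53) in AEVs and 23 UMIs or 3.20 CPM (2.03 to 4.81) in PBS, a log2 ratio of 0.80 (0.03 to 1.60). Klk6-led nuclei had 28 UMIs in AEVs and 13 in PBS, a log2 ratio of 1.12 (0.12 to 2.19). Both lower bounds lie just above 0, by less than the size of the TMM shifts of -0.13 and -0.14 in these classes. Oligodendrocyte precursor-like nuclei had 15 UMIs in AEVs and 10 in PBS, called higher at 1.05 (-0.20 to 2.37) on the log2 scale, and neurofilament-led nuclei 18 and 16, called higher at 0.67 (-0.39 to 1.74), so neither gap exceeds counting error. Neuron-like nuclei had 5.99 CPM in AEVs and 6.06 CPM in PBS. Over the 13 classes Sesn2 ran from 4.01 to 11.0 CPM in AEVs and from 2.64 to 8.87 CPM in PBS. No neighbouring pair lay apart, which compares only the closest classes. Gm12981, which lies within Sesn2 on the same strand in the annotation, had 2 UMIs in AEVs and 0 in PBS in oligodendrocyte-like and Klk6-led nuclei.

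Ppp1r15a encodes GADD34, the phosphatase subunit that takes the phosphate off eIF2 again and so closes the loop. It had the widest gap after Trib3 in oligodendrocytes. The oligodendrocyte-like class held 91 UMIs or 12.1 CPM (9.72 to 14.8) in AEVs and 28 UMIs or 3.90 CPM (2.59 to 5.63) in PBS, a log2 ratio of 1.63 (1.01 to 2.30). The Klk6-led clusters held 51 UMIs or 10.5 CPM (7.78 to 13.7) in AEVs and 9 UMIs or 1.83 CPM (0.837 to 3.48) in PBS, a log2 ratio of 2.51 (1.48 to 3.72). The 4 larger clusters, which are parts of the same libraries and not replicates, had log2 ratios of 1.96, 1.27, 2.49 and 2.63 with counting intervals above 0. Thinned nuclei of both kinds together held the RNA in 0.890% of AEVs and 0.278% of PBS nuclei. Astrocyte-like nuclei were called higher, with 15.7 CPM in AEVs and 10.1 CPM in PBS and a log2 ratio of 0.63 (0.04 to 1.23), while fibroblast-like nuclei had 19.1 CPM in AEVs and 23.3 CPM in PBS. Ppp1r15a was highest in Schwann-like nuclei, which make peripheral myelin, at 46.2 CPM (25.3 to 77.6) in AEVs and 39.7 CPM (21.2 to 67.9) in PBS. Its last 717 bases overlap Tulp2 on the opposite strand, and Tulp2 had 12 UMIs in AEVs and 9 in PBS in oligodendrocyte-like and Klk6-led nuclei.

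**Figure D2:**
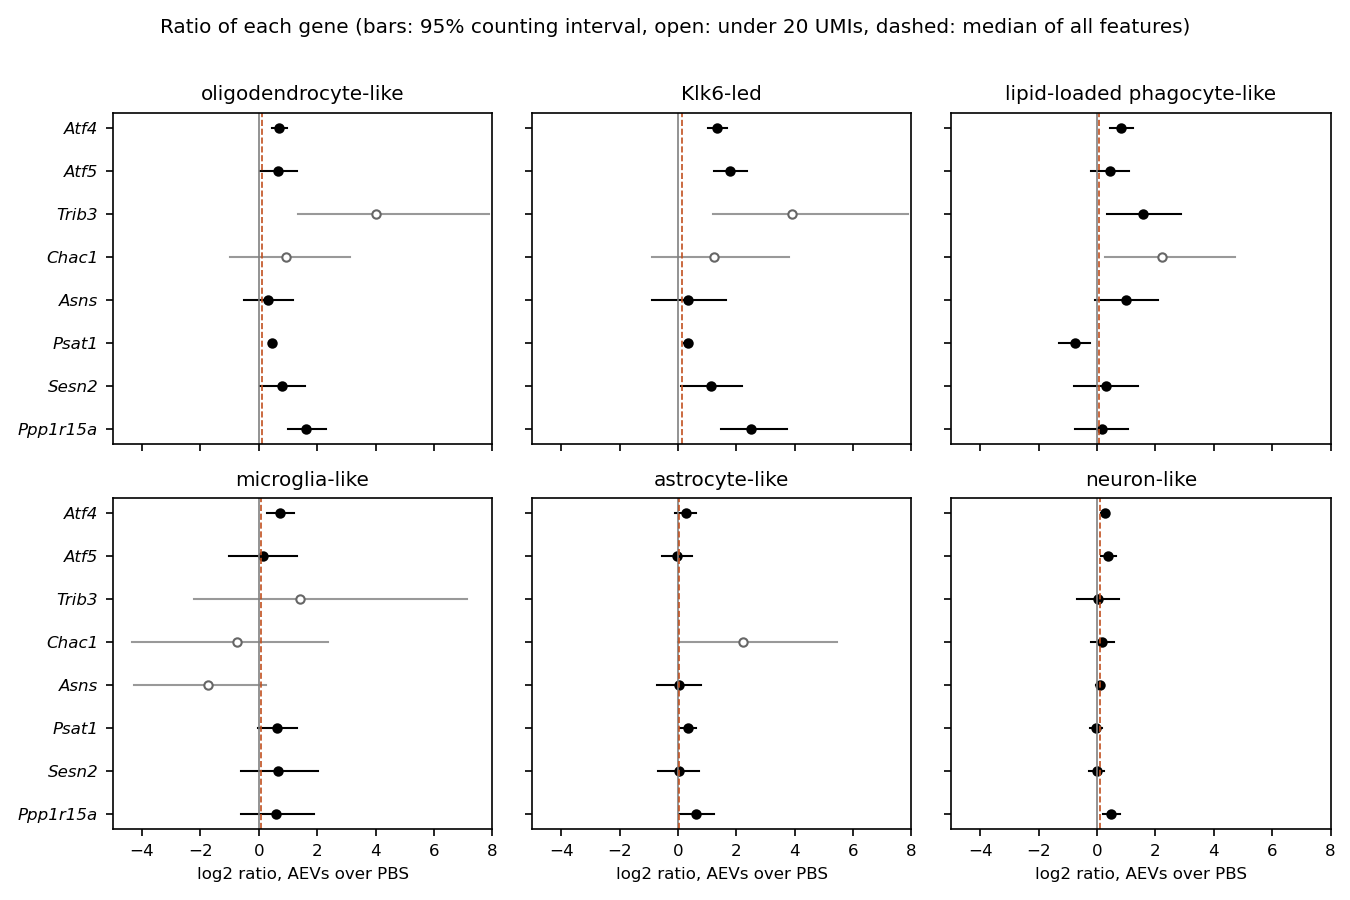
Log2 ratio (AEVs over PBS) of each gene in 6 classes, with 95% counting intervals that run past the axis for Trib3 in the oligodendrocyte-like and Klk6-led panels. Open points have under 20 UMIs, the dashed line is the median of all features, and Psat1 in the lipid-loaded phagocyte-like panel, at -0.77, is the filled point farthest below 0.

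The pattern over classes was uneven. In the neuron-like class, with 4413 AEVs and 3265 PBS nuclei and the deepest counts, all 8 genes had enough UMIs and 0 were called in either direction, where 12.7% of all features were called higher and 7.39% lower. The log2 ratios ran from -0.04 (Psat1) to 0.49 (Ppp1r15a), with a median of 0.14 beside 0.10 for all features. Lipid-loaded phagocyte-like nuclei had Trib3, Atf4 and Asns called higher and Psat1 lower among 7, where 14.3% of all features were called higher and 9.88% lower. Microglia-like nuclei had Atf4, Psat1, Sesn2 and Ppp1r15a called higher among 5, where the shares were 15.5% and 7.88%, and of these Atf4 alone had an interval above 0. That count of 4 was 1 after thinning, where Sesn2 turned to -0.13, and 2 with either other scaling factor.

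In each of the remaining classes 1 to 3 genes were called higher. Oligodendrocyte precursor-like nuclei had Atf4, Asns and Sesn2 called higher among 4, where 12.7% of all features were called higher and 10% lower. Astrocyte-like nuclei had Ppp1r15a called higher among 6, where the shares were 10.1% and 6.06%, but none with TMM scaling. Fibroblast-like nuclei had Atf4 called higher among 6, where they were 14.3% and 10.6%. Neurofilament-led nuclei had Sesn2 called higher among 7, where they were 11.7% and 8.91%, and their median of -0.001 lay below the 0.05 of all features. After thinning none was called there, and Sesn2 turned to -0.19 without a mitochondrial limit. No class other than the lipid-loaded phagocyte-like one had a gene of the 8 called lower.

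Other RNA moved with these results. The erythroid markers were higher in AEVs for 6 of 6 in oligodendrocyte-like nuclei, with summed levels of 114.5 CPM in AEVs and 38.6 CPM in PBS, and likewise in the Klk6-led clusters, at 69.9 and 26.0 CPM. In neuron-like nuclei the sums were 46.5 CPM in AEVs and 19.3 CPM in PBS. The shift was not uniform. Erythroid sums were lower in AEVs in endothelial-like nuclei, at 760.8 CPM against 2042 CPM in PBS. They were also lower in fibroblast-like (229.6 against 281.4 CPM) and microglia-like nuclei (73.7 against 93.3 CPM). In the remaining classes of at least 100 nuclei per library they were higher in AEVs. Fibroblast markers went the other way in oligodendrocyte-like and Klk6-led nuclei together, at 29.2 CPM in AEVs and 65.5 CPM in PBS with 3 of 10 higher in AEVs, and B cell markers summed to 66.5 and 29.7 CPM with 2 of 6 higher in AEVs. The median mitochondrial share of UMIs, a sign of nucleus quality, was 0.151% in AEVs and 0.212% in PBS in these nuclei and 0.141% and 0.252% over all nuclei, and 103 AEVs and 527 PBS barcodes were at or over the limit. The 10 oligodendrocyte markers summed to 22000 CPM in AEVs and 23770 CPM in PBS in oligodendrocyte-like nuclei, with 5 of 10 higher in AEVs. Macrophage markers were near 0 there, at 5.84 CPM in AEVs and 13.8 CPM in PBS, and lipid-loaded phagocyte markers stood at 308.8 and 543.8 CPM, 2.51% and 5.62% of their home level. Immediate early genes, which handling of tissue can induce, had 5 of 11 called higher in oligodendrocyte-like and Klk6-led nuclei together and none lower, beside 17.1% and 6.80% of all features, with a median log2 ratio of 0.26. Over all nuclei 1 of 13 was called higher and 6 lower, beside 12.5% and 6.11% of all features. In microglia-like nuclei 6 of 9 were called higher, beside 15.5% of all features, with a median of 0.81. Their part in the results was not tested.

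Nuclei in which 1 of the genes was detected were also deeper. Of the 26 AEVs nuclei of the oligodendrocyte-like and Klk6-led kinds with a Trib3 UMI, 21 (80.8%) also held 1 of the other genes, against 41.9% of the nuclei without Trib3, and the median depths were 2695 and 2003 UMIs. Of the 26, 11 held Atf4 and 7 held Psat1. After thinning, 3 of 13 nuclei with Trib3 (23.08%) held another of the genes, against 23.15% of those without. For Atf4 the shares after thinning were 21.8% with and 19.9% without in AEVs, and 8.26% with and 14.7% without in PBS. In lipid-loaded phagocyte-like nuclei the shares after thinning were higher with Trib3, at 3 of 7 nuclei (42.9%) against 14.0% without it in AEVs and 2 of 4 (50%) against 11.9% in PBS, from few nuclei. With Atf5 they were 5 of 16 (31.2%) against 13% without it in AEVs and 1 of 14 (7.14%) against 10.9% in PBS. Nuclei of a library share their pool, so these shares are a description.

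Across the 26 class-by-library sums (13 classes in each library, which share library and depth), Trib3 and Atf4 had the most similar patterns of any pair among the 8 genes, with Pearson r of 0.75 on log2(CPM + 10). Asns and Chac1 followed with r of 0.74 and Trib3 and Atf5 with 0.64. Trib3 and Chac1 had 171 and 326 UMIs in all, under the 500 asked of the genes compared below. Their r values, those of these pairs among them, therefore rest on few UMIs. Psat1 had a negative r with 6 of the other 7, the lowest being -0.46 with Asns. Among 12301 genes with at least 500 UMIs, the nearest patterns to Trib3 were those of Alas1 (r of 0.82), which makes heme, Yrdc and Ch25h. Eif4e2 and Edc3 were among the genes near Atf4, and the nearest to Atf5 were Ecm1 (0.80), Myof and Anxa5. Chac1 was nearest to Rgs11 (0.79), Arl16 and Aars, the last the alanyl-tRNA synthetase, and Asns to Dlgap2 (0.91), Slc29a4 and Mapk11. Psat1 was nearest to Tmem88b (0.89), Cdc37l1 and Fan1, Sesn2 to Snhg4 (0.71), Rabggtb and Zfp791, and Ppp1r15a to Plekha4 (0.83), Brd2 and Sertad1.

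Around the 8 genes, other lists of the pathway were followed in the oligodendrocyte-like and Klk6-led nuclei together, where 17.1% of all features were called higher and 6.80% lower and the median log2 ratio of all features was 0.13. Of the partner and further stress transcription factors 7 of 11 were called higher and 1 lower, with a median of 0.84. In the oligodendrocyte-like class Cebpb, a C/EBP factor that pairs with ATF4, had 35.3 CPM in AEVs and 3.20 CPM in PBS, a log2 ratio of 3.46 (2.85 to 4.14), and Nupr1, a small stress-induced chromatin protein, had 29.0 and 6.40 CPM. Jdp2, a repressor that binds the same kind of site, went the other way with 13 CPM in AEVs and 26.2 CPM in PBS. The gap of Cebpb was not particular to oligodendrocytes. Among genes of this list with at least 50 UMIs, Cebpb also had the highest ratio over all nuclei and in neuron-like and neurofilament-led nuclei. The same held in astrocyte-like, microglia-like, lipid-loaded phagocyte-like and fibroblast-like nuclei, but not in oligodendrocyte precursor-like ones. Of amino acid and one-carbon synthesis genes 7 of 14 were called higher and 1 lower, with a median of 0.60. In the oligodendrocyte-like class Shmt1, a serine hydroxymethyltransferase, had 9.42 CPM in AEVs and 3.62 CPM in PBS, whereas Aldh1l2, a mitochondrial folate enzyme, had 16.4 CPM in AEVs and 32.3 CPM in PBS.

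Amino acid transporters had 3 of 10 called higher, with a median of 0.46. Slc1a5, a carrier of glutamine, had 10.9 CPM in AEVs and 2.92 CPM in PBS in the oligodendrocyte-like class, a log2 ratio of 1.90 (1.19 to 2.66), and Slc6a9, a glycine carrier, had 67.0 and 88.5 CPM. Secreted and other ATF4-linked targets had 6 of 14 called higher, with a median of 0.42, led in the oligodendrocyte-like class by Bbc3, which encodes the cell death protein PUMA, with 19.0 CPM in AEVs and 4.32 CPM in PBS. Sensor kinases, eIF2 and eIF2B genes had 4 of 15 called higher, with a median of 0.26, and the eIF2B subunit gene Eif2b5 had 23.9 CPM in AEVs and 14.8 CPM in PBS in the oligodendrocyte-like class, while Eif2ak3, the kinase PERK, had 47.1 and 40.2 CPM. Cytosolic aminoacyl-tRNA synthetases had 2 of 19 called higher, with a median of 0.23, Nars leading with 100.0 CPM in AEVs and 58.1 CPM in PBS.

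Lists of other stress arms were followed in the same nuclei. Endoplasmic reticulum chaperones and the IRE1 and ATF6 arms had 1 of 20 called higher and none lower, with a median of 0.08 that turned to -0.05 under TMM and -0.04 under median of ratios, and Dnajb9, the chaperone ERdj4, was the highest in the oligodendrocyte-like class with 38.7 CPM in AEVs and 20.2 CPM in PBS. Mitochondrial stress genes had 1 of 10 called higher, with a median of 0.25. Sestrins, Tribbles and mTOR brakes other than Trib3 and Sesn2 had 1 of 10 called higher and 1 lower, with a median of 0.09 that turned to -0.04 under TMM, -0.03 under median of ratios and -0.18 with thinning.

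**Figure D3:**
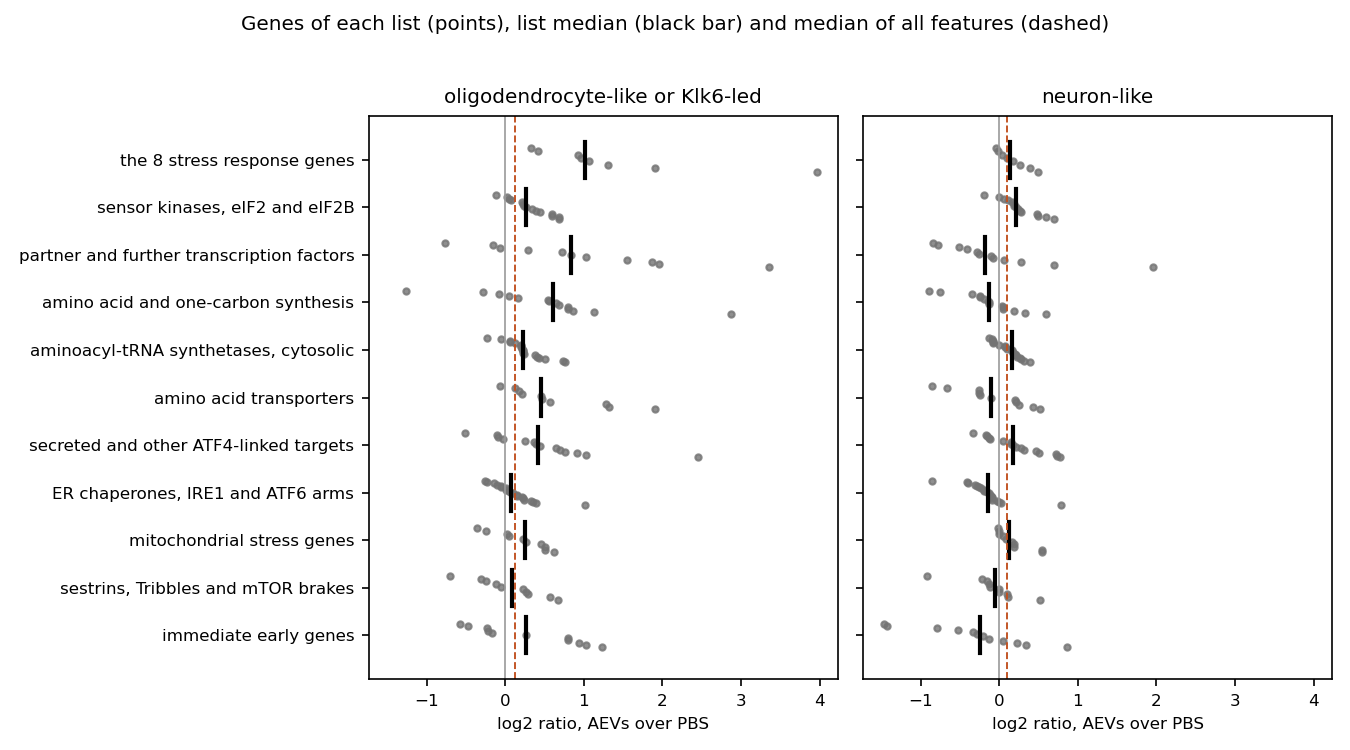
Log2 ratio (AEVs over PBS) of each gene of 11 lists, with the list median as a black bar and the median of all features as a dashed line, in oligodendrocyte-like and Klk6-led nuclei together (left) and neuron-like nuclei (right). The 8 genes have medians of 1.02 on the left and 0.14 on the right, and the endoplasmic reticulum list 0.08 (-0.05 under TMM) and -0.14.

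Neuron-like nuclei, with 12.7% of all features called higher, 7.39% lower and a median of 0.10, gave list medians on both sides of 0. The partner factors had a median of -0.19, with 2 of 12 called higher and 2 lower, which turned to 0.16 with doublet calls kept in and 0.06 with the stricter nucleus filter. Amino acid and one-carbon synthesis had -0.14, with 1 of 15 higher and 2 lower, and turned to 0.03 with that filter. The transporters had -0.11, with 0 of 11 higher and 2 lower, and turned positive under 4 of 14 alternatives, up to 0.18. The endoplasmic reticulum list had a median of -0.14, with 18 of 20 genes below 0. This was not particular to neuron-like nuclei. Its median was -0.455 in neurofilament-led, -0.34 in fibroblast-like, -0.31 in astrocyte-like and -0.24 in oligodendrocyte precursor-like nuclei. It lay near 0 in microglia-like, lipid-loaded phagocyte-like and oligodendrocyte-like nuclei and was 0.19 in the Klk6-led clusters. In neuron-like nuclei, sensor kinases and eIF2B had a median of 0.21, with 2 of 15 called higher. Secreted and other ATF4-linked targets had 0.17 in these nuclei, with 3 of 17 called higher and none lower. The synthetases had 0.16 and mitochondrial stress genes 0.12. Sestrins, Tribbles and mTOR brakes had -0.06, which turned to 0.02 with doublet calls kept in. Lipid-loaded phagocyte-like nuclei had medians of 0.47 for the transporters, 0.31 for the synthetases and 0.26 for amino acid and one-carbon synthesis, beside 0.06 for all features. Secreted targets had 0.27 and sensor kinases and eIF2B 0.25. The other lists did not share this, with 0.10 for partner factors and 0.02 for mitochondrial stress genes. The endoplasmic reticulum list had -0.02 and sestrins, Tribbles and mTOR brakes -0.07. Since the lists and the 8 genes come from the same libraries and the same contrast, these medians are no independent evidence of one another.

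**Figure D4:**
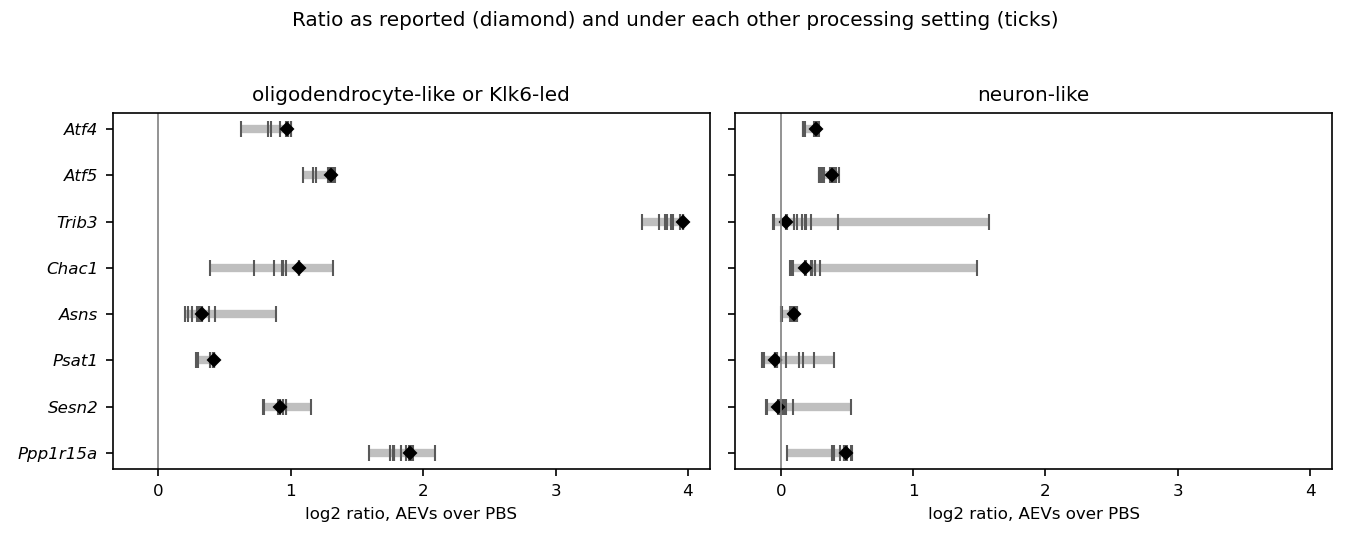
Log2 ratio (AEVs over PBS) of each gene as reported (diamond) and under each other processing setting (ticks, joined by a grey bar), in oligodendrocyte-like and Klk6-led nuclei together (left) and neuron-like nuclei (right). On the left all 8 genes stay above 0, Atf4 between 0.62 and 1.00 and Trib3 between 3.65 and 3.96, while on the right Trib3, Psat1 and Sesn2 lie on both sides of 0.

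In the Klk6-led clusters alone, Chac1 and Asns each reached -0.15 under an alternative setting, and the other 6 genes stayed above 0 in all those run. Psat1 in lipid-loaded phagocyte-like nuclei ran from -0.87 to -0.54 over 10 alternatives.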

How the data were processed

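Nuclei of frozen spinal cord were profiled with a SeekGene SeekOne DD 3' droplet kit, per the labels' protocols, in 1 library per group. The authors deposited raw counts of UMIs for each gene and barcode, unscaled, and each barcode held at least 500 UMIs. The build mm10 and Seurat are named, without a version, in the submitters' processing notes. For the aligner, annotation, use of strand and removal of free RNA, the sources used here give nothing. Totals were 81875882 UMIs over 17055 AEVs barcodes and 82953601 over 15325 PBS barcodes.

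Nuclei with at least 300 genes, 500 UMIs and under 5% mitochondrial UMIs were kept. Scrublet in scanpy 1.11.5 marked 1400 AEVs (8.26%) and 771 PBS (5.21%) nuclei as doublets, which were removed. Both libraries were clustered together, without integration, on 2000 variable genes, 30 principal components and 20 neighbours with the Leiden method at resolution 1 (igraph 0.11.9), giving 29 clusters named by fixed markers, with at least 3 markers raised 2-fold. UMIs were summed per class and library. Exact 95% intervals, which cover counting error alone, are Poisson for levels, conditional binomial for ratios and Clopper-Pearson for shares. UMIs in place of 0 are 3 per library. With 1 library per group no test across samples was possible, so no p-value is given. Values are given for classes of at least 100 nuclei per library and counts of genes for at least 300. Alternatives used edgeR 4.0.16 (TMM) and DESeq2 1.42.0 (size factors only), and checks of the intervals ran on simulated counts.

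The 8 genes and the lists were chosen with earlier results of these data known. Named list genes are the 2 highest and 2 lowest of a list in all nuclei or the oligodendrocyte-like class among those with at least 50 UMIs, and a part of them is printed. The grouping of Klk6-led and neurofilament-led clusters was chosen after the data were seen, as were 2 alternatives, leaving out shared barcodes and counting neurofilament-led nuclei as neuron-like. Of 32285 gene identifiers 32235 were found in GENCODE M21, which gave overlaps, and promoter sequences are from RefSeq.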

Additional observations from a re-analysis of the deposited data

Results flagged for a closer look

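Psat1 differed in direction between classes under the same contrast, in a comparison that was not tested between classes. The AEVs library had less of it in lipid-loaded phagocyte-like nuclei, at a log2 ratio of -0.77, and more in oligodendrocyte-like nuclei, at 0.46, in the Klk6-led clusters at 0.34 and in astrocyte-like nuclei at 0.34, each with a counting interval that leaves out 0. The astrocyte-like value turned to -0.05 when nuclei were thinned to equal depth, so its direction depends on the setting. Each value rests on 1 library per group.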

How the results depend on the processing

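Each result has 1 library per group, so there was no replicate to leave out. No paired analysis was possible because the groups hold 1 sample each. Depth limits Trib3 and Chac1, which had under 20 UMIs in most classes, and what varies between mice or pools is outside every interval. Of 1153 alternative values of single genes 1112 moved within the counting interval and 39 moved further. Of 341 such values of ratios that had been called 2 changed direction, both Sesn2, to -0.13 in microglia-like nuclei thinned to 1000 UMIs and to -0.19 in neurofilament-led nuclei without a mitochondrial limit, and of 812 values of ratios that had not been called 86 lay on the other side of 0. The medians over the 8 genes stayed within their counting range in 143 of 143 cases, of which 2 lay on the other side of 0. That range, here and for the list medians below, is the mean of the intervals of the 1 or 2 middle genes. It is as wide as intervals of single genes, so staying within it says little about how stable a median is. The cause of the moves below was not tested.

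Over all nuclei the 1 gene called higher became 2 with the mean over nuclei, with thinning and with the same mix of clusters, and 0 at 2-fold. In the Klk6-led clusters the 4 became 2 with thinning. In the oligodendrocyte-like class the 4 became 1 under the strict nucleus filter, 2 without the mitochondrial limit, 2 under TMM and 1 at 2-fold. The median of the transporters in oligodendrocyte-like and Klk6-led nuclei became 0.62 with thinning, against 0.46.

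Of 670 alternative list medians 47 moved, and 25 of these, in neuron-like, oligodendrocyte-like or Klk6-led nuclei taken alone, are not printed one by one. Of the others, 1 is the transporter median given above and 21 are of lists over all nuclei, as follows. Sensor kinases and eIF2B, at 0.24, gave 0.14 under TMM, 0.14 under median of ratios, 0.17 with the mean over nuclei and 0.15 with thinning. Partner factors, at 0.10, gave 0.01, 0.00 and 0.00 under the first 3 of these. Amino acid and one-carbon synthesis, at 0.21, gave 0.16 without the mitochondrial limit, 0.11, 0.11, 0.15 and 0.28 under those 4, and 0.16 with the same mix of clusters. Under TMM and median of ratios, secreted targets, at 0.23, gave 0.13 and 0.12, the endoplasmic reticulum list, at -0.13, gave -0.23 and -0.23, mitochondrial stress genes, at 0.17, gave 0.08 and 0.07, and sestrins, Tribbles and mTOR brakes, at -0.06, gave -0.15 and -0.16.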
